A study of Mus musculus with 28 samples.

Results

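The genes described here are 34 components of protein folding in the endoplasmic reticulum (ER) and of the unfolded protein response. They comprise 9 chaperones and lectins, 3 DnaJ co-chaperones, 7 disulfide isomerases, 8 genes of ER-associated degradation, 3 stress sensors with the factor Xbp1, and 3 genes of translocation and export. All 34 listed genes were found by their platform symbol among 18194 measured genes, and each was read from the probe set with the largest standard deviation (SD) over the arrays. Their expression was measured on 28 Affymetrix arrays in NIH3T3, an immortalised mouse fibroblast line, and in 1 line labelled NIH3T3 K-ras, called K-ras here. Cells of both lines shared the same growth medium with newborn calf serum and the same glutamine concentration. They were collected at the change of medium (0 h, at 25 mM glucose) and 24, 48 and 72 h later in 25 mM or 1 mM glucose. This gave 14 groups with 2 arrays in each. The labels call the arrays of a group biological replicates, and p-values measure the spread between these samples. The labels do not say how the K-ras line was made or whether it is a single clone. The study asked which genes change with the availability of glucose in the 2 lines.

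Proteins entering the ER are folded by chaperones and disulfide isomerases, and those that fail to fold are extracted and degraded. When unfolded protein builds up, 3 membrane sensors respond: Atf6 and Ern1 (IRE1), whose output Xbp1 raises the transcription of chaperones and degradation genes, and Eif2ak3 (PERK), which slows translation and favours the factor Atf4 and its target Ddit3 (CHOP). Glucose supplies the sugars attached to many proteins as they enter the ER, and the chaperone Hspa5 (BiP) is also known as glucose-regulated protein.

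Many promoters of this response carry the ER stress response element (ERSE), spelled CCAAT, 9 bases of any kind, then CCACG, which is bound by NF-Y together with Atf6 or Xbp1. The RefSeq promoter table (build GRCm38.p6, 250 bases before to 50 after a gene's start) had an entry for 28 of the 34 genes. Both strands were searched. The ERSE letters were found in 9 of the 32 promoters of these genes (28.1%) and in 39 of all 32851 promoters (0.119%). The 9 genes were Calr, Canx, Creld2, Derl3, Dnajc3, Hsp90b1, Hspa5, Pdia6 and Syvn1. The shorter ERSE-II, spelled ATTGG, 1 base of any kind, then CCACG, was found in Herpud1 and, after the start, in Dnajb11, against 0.0365% of all promoters. The core of the unfolded protein response element, TGACGTGG, was found in Sec24d and Txndc5, against 0.676% of all promoters. No gene held more than 1 kind of motif, so matches of different motifs did not overlap. The windows below were chosen after the values were seen. Most of these genes stood high together on NIH3T3 1 mM 24 h replicate 1 and K-ras 1 mM 72 h replicate 2, while Derl3 has the same letters and did not. Calr and Syvn1 also hold the ERSE but are not shown. Their log2 ratios on those arrays were 0.92 and 0.77, and 1.53 and 0.63, so neither lay above 1 on both. Capitals mark the fixed bases of the motif, which read CGTGG then ATTGG where the match lies on the opposite strand. The windows lie at chr2:34772000-34772068 (Hspa5), chr15:88819495-88819563 (Creld2), chr12:17266466-17266534 (Pdia6), chr14:118937802-118937870 (Dnajc3), chr10:75893217-75893285 (Derl3) and chr8:94386352-94386412 (Herpud1) on the plus strand. Those of Hsp90b1 (chr10:86705508-86705681, holding 2 matches) and Canx (chr11:50325775-50325843) lie on the minus strand, and all run in the direction of transcription.
Hspa5: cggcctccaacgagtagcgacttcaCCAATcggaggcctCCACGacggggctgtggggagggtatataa
Hsp90b1: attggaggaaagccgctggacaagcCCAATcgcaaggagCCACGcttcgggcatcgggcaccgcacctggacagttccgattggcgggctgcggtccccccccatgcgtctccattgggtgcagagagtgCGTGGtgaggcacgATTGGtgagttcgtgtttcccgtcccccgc
Creld2: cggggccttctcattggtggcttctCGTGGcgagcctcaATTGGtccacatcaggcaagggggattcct
Pdia6: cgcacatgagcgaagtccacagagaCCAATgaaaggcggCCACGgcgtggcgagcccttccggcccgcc
Dnajc3: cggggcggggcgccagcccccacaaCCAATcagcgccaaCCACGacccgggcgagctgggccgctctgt
Canx: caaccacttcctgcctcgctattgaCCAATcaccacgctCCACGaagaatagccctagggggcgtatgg
Derl3: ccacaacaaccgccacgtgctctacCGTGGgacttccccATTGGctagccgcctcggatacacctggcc
Herpud1: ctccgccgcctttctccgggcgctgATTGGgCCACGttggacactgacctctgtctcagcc

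Every value below is a log2 ratio to the same gene's median over the 28 arrays, so 1 unit is a doubling, differences between arrays can be read, and levels of different genes cannot be compared. In these bulk cultures, fewer cells with a transcript and less transcript per cell cannot be told apart. Before the results, 6 arrays have to be named because they carried the profile of the other line. Il33, a cytokine, lay between 0.98 and 3.42 on 14 arrays and between -6.52 and -5.52 on the other 14, and Krt14, a keratin, split the same arrays in the opposite direction. By these genes, both NIH3T3 arrays at 1 mM and 24 h and replicate 1 of NIH3T3 at 1 mM and 48 h had the K-ras profile. The NIH3T3 profile was found on replicate 1 of the K-ras groups at 0 h, at 1 mM and 48 h, and at 1 mM and 72 h. No array was moved to another group, and "the arrays labelled NIH3T3" is meant wherever a line is named for these groups. The hybridisation control bioC was low (below -0.6) on 12 arrays, all labelled NIH3T3. K-ras 25 mM 72 h replicate 1 had the widest spread over all probe sets (interquartile range 0.65). Of the fibroblast markers, 8 of 8 were measured, and a ratio cannot show their presence or absence.

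The 34 genes stood high as a set on 2 of the 28 arrays, both at 1 mM glucose. Their median was 1.45 on NIH3T3 1 mM 24 h replicate 1 and 1.53 on K-ras 1 mM 72 h replicate 2. The replicate partners of these arrays had medians of -0.02 and -0.03. On these arrays, called the 2 high arrays from here on, 21 and 20 of the 34 genes lay above 1, that is, above a doubling of their own median. Of these, 19 genes lay above 1 on both, against 2.6% of all genes. For 22 of the 34 genes (64.7%) the highest 2 arrays of the series were these 2, against 3.89% of all genes. On the other 26 arrays the median ran from -0.41 to 0.35, and that highest value belonged to NIH3T3 1 mM 72 h replicate 2, where 6 genes lay above 1. The arrays were singled out after their values were seen, so these counts are a description and carry no test.

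**Figure D1:**
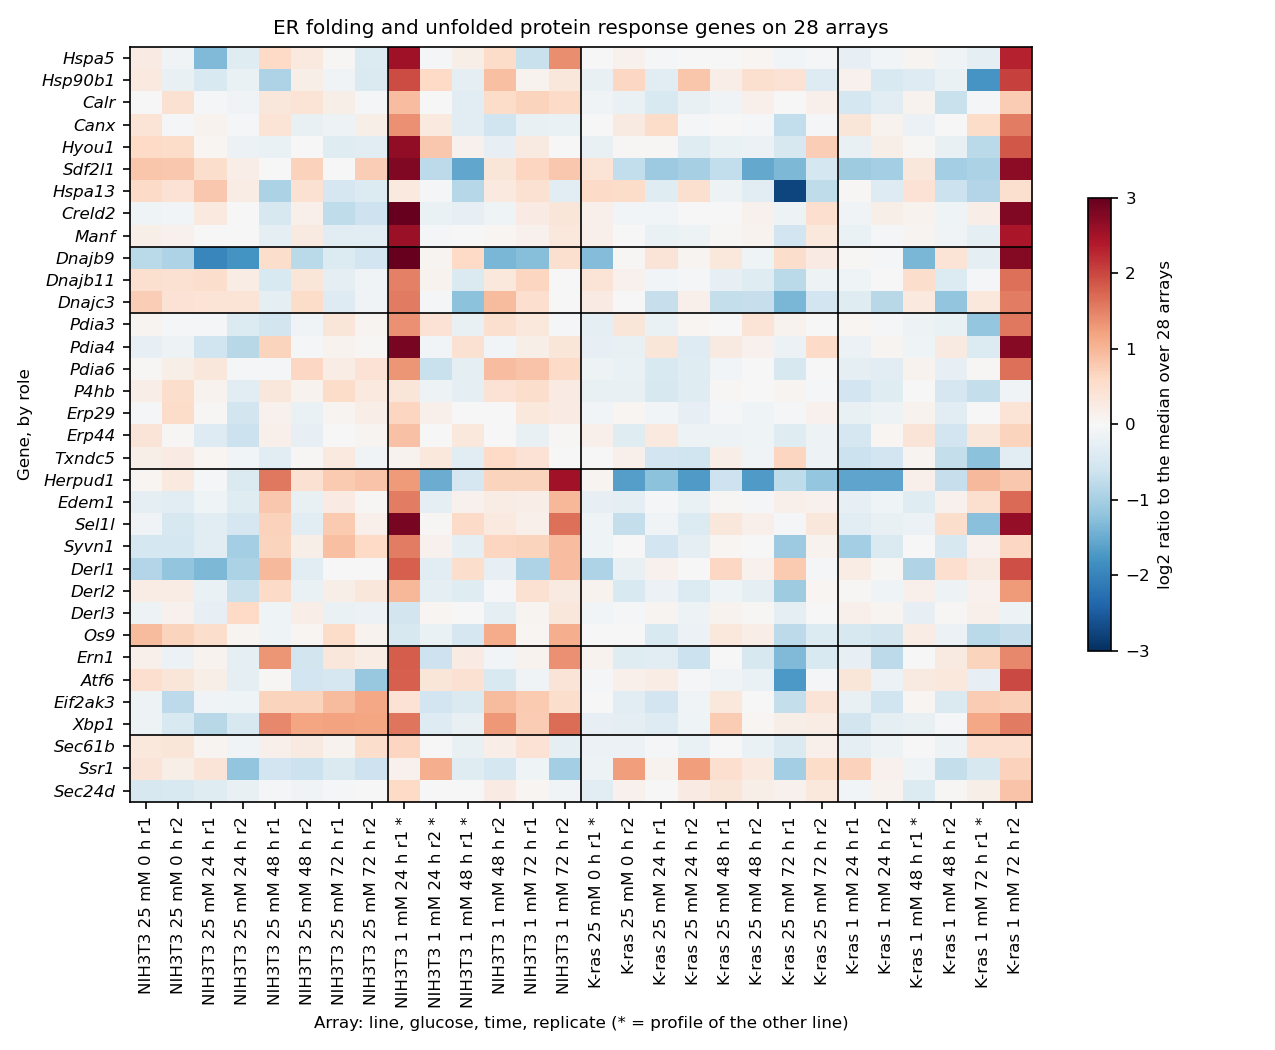
Colour gives the log2 ratio of each of the 34 genes (rows, grouped by role) to its median over 28 arrays (columns, ordered by line, glucose, time and replicate; a star marks an array with the profile of the other line). The darkest red columns are NIH3T3 1 mM 24 h replicate 1 and K-ras 1 mM 72 h replicate 2, with 21 and 20 genes above 1.

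**Figure D2:**
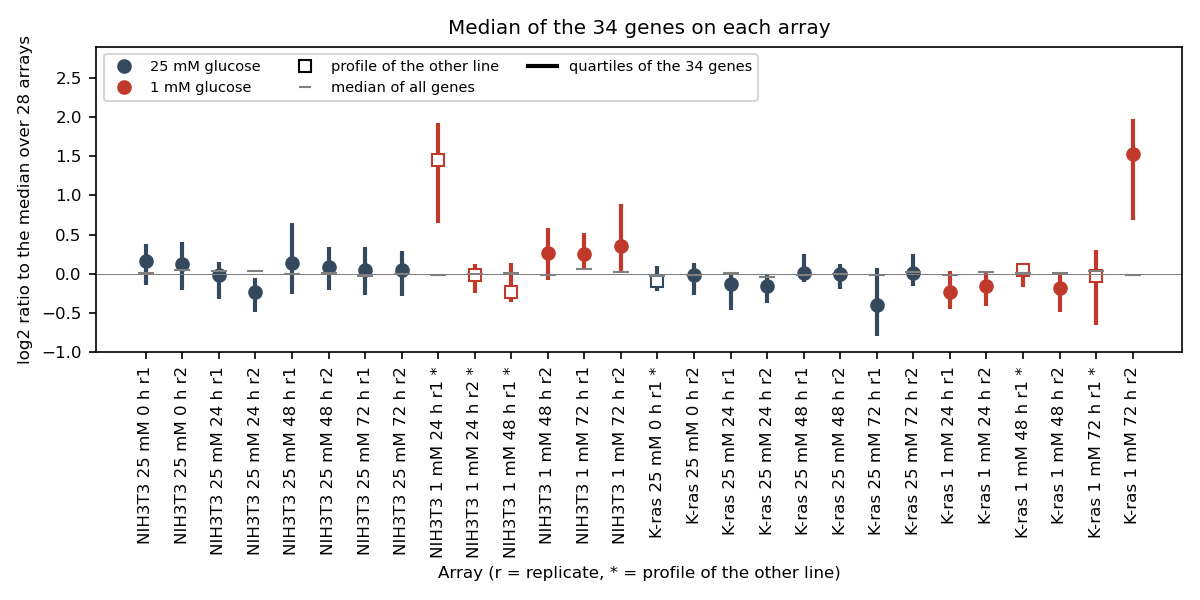
Points are the median of the 34 genes on each array (log2 ratio), bars their lower and upper quartiles, grey ticks the median of all genes, open squares arrays with the profile of the other line. The 2 high arrays sit at 1.45 and 1.53, and their replicates at -0.02 and -0.03.

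The 2 high arrays carried different line labels but the same line profile. Il33 was 3.42 on the first and 3.11 on the second, and Krt14 was -4.05 and -3.95. The bioC control was -1.82 on the first and 0.80 on the second, and its part in the result was not tested. Across the 34 genes their values correlated at r = 0.94, and across the other 18160 genes at r = 0.84, a description over genes that share the arrays and are not independent. NIH3T3 1 mM 24 h replicate 1 correlated more closely with K-ras 1 mM 72 h replicate 2 than with any other array of the series, its own replicate included (r = 0.09 over all genes). The median absolute gap between the 2 arrays was 0.21 over the 34 genes. Between the replicates of NIH3T3 1 mM 24 h that gap was 1.40 for the 34 genes and 0.28 for all genes, and for K-ras 1 mM 72 h it was 1.20 and 0.37. The labels put these 2 arrays in different lines and at different times. Whether a label was exchanged cannot be told from these values, so every 24 h value of the first and 72 h value of the second holds only as labelled. In the 12 remaining groups the gap for the 34 genes lay between 0.15 and 0.70.

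**Figure D3:**
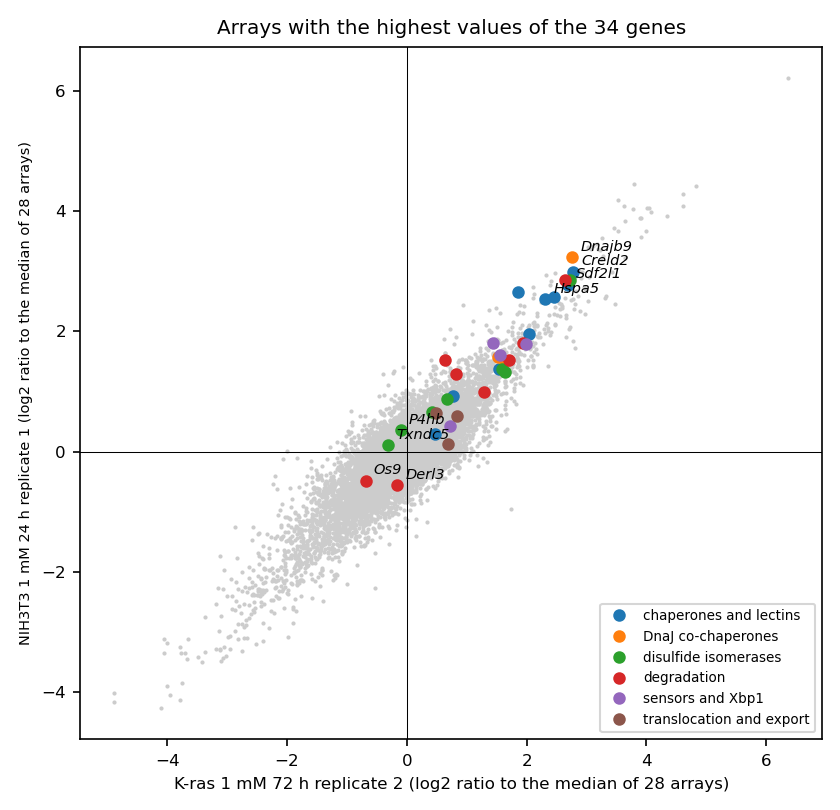
Each point is a gene, with its log2 ratio on K-ras 1 mM 72 h replicate 2 (horizontal axis) against NIH3T3 1 mM 24 h replicate 1 (vertical axis); grey points are all genes and coloured points the 34 genes by role. Dnajb9, Creld2 and Sdf2l1 lie at the upper right (3.24 and 2.76, 2.99 and 2.77, 2.78 and 2.69), and Os9 and Derl3 lie below 0 on both axes.

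The chaperones and lectins had the highest median of the 6 roles on the 2 high arrays, at 2.54 and 2.04. Hspa5, which binds unfolded chains and holds the sensors inactive, was 2.54 on NIH3T3 1 mM 24 h replicate 1 and -0.04 on replicate 2. In K-ras at 1 mM and 72 h it was -0.27 and 2.31, and in NIH3T3 at 1 mM and 72 h -0.66 and 1.41. Its remaining 1 mM values were 0.17 and 0.56 in NIH3T3 at 48 h, -0.24 and -0.08 in K-ras at 24 h, and 0.07 and -0.10 in K-ras at 48 h. Hspa5 therefore exceeded a doubling on 1 replicate in each of 3 groups, all at 1 mM. At 25 mM the 8 K-ras arrays lay within -0.09 to 0.14, with a median of 0.00. The 8 NIH3T3 arrays at 25 mM ran from -1.32, at 24 h, to 0.61, at 48 h, with a median of -0.04. All 3 Hspa5 probe sets were above 0 on the 2 high arrays, at 2.54, 1.73 and 0.38 on the first and 2.31, 1.92 and 1.08 on the second.

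Creld2 and Manf, small ER proteins released from stressed cells, stood clear of every other array on the 2 high arrays. Creld2 was 2.99 and 2.77 on the 2 high arrays and at most 0.50 on the other 26. Manf was 2.58 and 2.45 there and at most 0.33 elsewhere. Their replicate partners were near the median of the series: Creld2 -0.20 and 0.21, Manf -0.07 and -0.26. On NIH3T3 1 mM 72 h replicate 2, where Hspa5 was also above 1, Creld2 was 0.37 and Manf 0.33, close to the partner values of 0.24 and 0.12. In the other 1 mM groups Creld2 was -0.25 and -0.12 in NIH3T3 at 48 h, -0.11 and 0.18 in K-ras at 24 h, and 0.10 and -0.13 in K-ras at 48 h. Manf was -0.02 and 0.07, -0.20 and -0.03, and 0.08 and -0.11 in the same groups.

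Sdf2l1, a partner of the Hspa5 co-chaperones, was 2.78 and 2.69 on the 2 high arrays and -0.78 and -0.94 on their replicates. It also followed the line profile at 25 mM: the 8 arrays labelled NIH3T3 ran from 0.00 to 0.84 and 7 of the 8 labelled K-ras from -1.54 to -0.52. The exception, 0.41, came from replicate 1 of K-ras at 0 h, an array of the NIH3T3 profile. At 1 mM it was -1.56 and 0.37 in NIH3T3 at 48 h, 0.66 and 0.81 in NIH3T3 at 72 h, -1.06 and -1.01 in K-ras at 24 h, and 0.33 and -1.02 in K-ras at 48 h. In both 48 h groups the replicates lay apart, and 1 array of each pair had the profile of the other line.

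Hsp90b1 (Grp94), the ER member of the Hsp90 family, was 1.96 and 2.04 on the 2 high arrays. Its replicate values were 0.60 in NIH3T3 at 24 h and -1.77 in K-ras at 72 h, so the K-ras pair at 1 mM and 72 h spanned both its lowest and its highest value. The other 1 mM values were -0.30 and 0.90 in NIH3T3 at 48 h, 0.10 and 0.33 in NIH3T3 at 72 h, 0.12 and -0.45 in K-ras at 24 h, and -0.39 and -0.20 in K-ras at 48 h. At 25 mM it ran from -0.92 to 0.83 over 16 arrays. Hyou1, a large chaperone that exchanges the nucleotide of Hspa5, was 2.65 and 1.86 on the 2 high arrays and -0.02 on NIH3T3 1 mM 72 h replicate 2. The lectins, which hold sugar-bearing chains during folding, were lower: Canx 1.37 and 1.54, and Calr 0.92 and 0.77. Hspa13, an ER-associated member of the Hsp70 family, was 0.29 and 0.47 there, and its lowest value of the series, -2.75, was on K-ras 25 mM 72 h replicate 1.

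The DnaJ proteins deliver unfolded chains to Hspa5. Dnajb9 (ERdj4) had the largest SD of the 34 genes (1.16) and the highest value of the set, 3.24 on NIH3T3 1 mM 24 h replicate 1. It was 2.76 on K-ras 1 mM 72 h replicate 2 and 0.09 and -0.30 on the replicates of the 2 high arrays. In the remaining 1 mM groups it was 0.60 and -1.36 in NIH3T3 at 48 h, -1.28 and 0.48 in NIH3T3 at 72 h, 0.04 and -0.03 in K-ras at 24 h, and -1.38 and 0.41 in K-ras at 48 h. Its 25 mM values also separated in time in NIH3T3: -0.80 and -0.93 at 0 h, -1.95 and -1.80 at 24 h, 0.53 and -0.81 at 48 h, and -0.40 and -0.56 at 72 h. The 24 h pair lay below the other 6 NIH3T3 arrays at 25 mM. Dnajb11 was 1.52 and 1.64 on the 2 high arrays and Dnajc3 (p58IPK), which restrains PERK, 1.57 and 1.52.

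Within the disulfide isomerases the values were split. Pdia4 was 2.85 and 2.73 on the 2 high arrays, Pdia3 1.38 and 1.59, and Pdia6 1.32 and 1.64. P4hb, the founding protein disulfide isomerase, was 0.35 and -0.10 on the same arrays, and Txndc5 0.11 and -0.31. Erp44, which retains proteins in the early secretory pathway, was 0.88 and 0.68, and Erp29 0.65 and 0.42. The second Pdia4 probe set read 0.11 and 0.01, so the height of Pdia4 rests on 1 of its 2 probe sets.

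Degradation genes had medians of 1.40 and 1.05 on the 2 high arrays and 0.96 on NIH3T3 1 mM 72 h replicate 2. Sel1l, the adaptor of the ER ubiquitin ligase complex, was 2.86 and 2.64 on the 2 high arrays, 0.04 and -1.26 on their replicates, and 1.65 on NIH3T3 1 mM 72 h replicate 2. Its 5 probe sets lay between 1.08 and 2.86 on the 2 high arrays. Edem1, a lectin that hands misfolded proteins to degradation, was 1.53 and 1.70 on the 2 high arrays and -0.28 and 0.48 on their replicates. It was 0.12 and 0.22 in NIH3T3 at 48 h, 0.20 and 0.99 in NIH3T3 at 72 h, -0.24 and -0.14 in K-ras at 24 h, and -0.36 and 0.13 in K-ras at 48 h, all at 1 mM. The ligase Syvn1 (Hrd1) was 1.53 and 0.63, and the channel proteins Derl1 and Derl2 were 1.80 and 1.94, and 0.99 and 1.29. Against these, 2 genes lay below 0: Derl3 (-0.55 and -0.16) and the lectin Os9 (-0.48 and -0.69). The second probe set of Os9 read 0.37 and -0.10, and that of Derl2 0.14 and 0.02.

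Herpud1, a scaffold of the same ligase complex, did not have its highest value of the series on either of the 2 high arrays. Its highest value, 2.52, was on NIH3T3 1 mM 72 h replicate 2, against 0.66 on replicate 1, and both of its probe sets were above 2.5 there (2.52 and 2.59). On the 2 high arrays it was 1.28 and 0.82, with -1.48 and 0.98 on their replicates. Among the arrays with the K-ras profile these 2 were its highest, and the rest lay between -1.70 and -0.50. The other 1 mM values were -0.50 and 0.67 in NIH3T3 at 48 h, -1.59 and -1.57 in K-ras at 24 h, and 0.15 and -0.68 in K-ras at 48 h. In NIH3T3 at 25 mM it was 0.06 and 0.29 at 0 h, -0.07 and -0.44 at 24 h, 1.59 and 0.45 at 48 h, and 0.79 and 0.85 at 72 h. In K-ras at 25 mM it was 0.08 and -1.64 at 0 h, -1.24 and -1.70 at 24 h, -0.62 and -1.70 at 48 h, and -0.76 and -1.16 at 72 h. Of the 16 arrays at 25 mM, the K-ras arrays thus lay below the NIH3T3 arrays except for K-ras 25 mM 0 h replicate 1, the array with the NIH3T3 profile.

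Among the sensors, Atf6 was 1.80 and 1.99 on the 2 high arrays and 0.36 and -0.24 on their replicates. Its other 1 mM values were 0.46 and -0.46 in NIH3T3 at 48 h, -0.10 and 0.40 in NIH3T3 at 72 h, 0.37 and -0.19 in K-ras at 24 h, and 0.27 and 0.32 in K-ras at 48 h. At 25 mM it ran from -1.72, on K-ras 72 h replicate 1, to 0.51. Ern1, the kinase and nuclease that splices Xbp1, was 1.81 and 1.44 on the 2 high arrays and -0.61 and 0.66 on their replicates. It was 0.25 and -0.08 in NIH3T3 at 48 h, 0.11 and 1.37 in NIH3T3 at 72 h, -0.26 and -0.78 in K-ras at 24 h, and 0.01 and 0.28 in K-ras at 48 h. At 25 mM Ern1 ran from -1.33 to 1.32, the latter on NIH3T3 48 h replicate 1. Only 1 of the 5 Ern1 probe sets lay above 1 on the 2 high arrays, and the other 4 lay between -0.14 and 0.52.

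Xbp1, the transcription factor made active by Ern1, exceeded 1 on 9 arrays, more than any other of the 34 genes. In NIH3T3 at 25 mM it was -0.15 and -0.45 at 0 h, -0.84 and -0.49 at 24 h, 1.43 and 1.19 at 48 h, and 1.20 and 1.19 at 72 h, so the 4 later arrays lay above the 4 earlier ones. In K-ras at 25 mM it was -0.24 and -0.30 at 0 h, -0.38 and -0.12 at 24 h, 0.77 and 0.05 at 48 h, and 0.17 and 0.23 at 72 h. At 1 mM it was 1.60 and -0.38, -0.21 and 1.29, and 0.75 and 1.68 in NIH3T3 at 24, 48 and 72 h. In K-ras it was -0.55 and -0.27, -0.21 and -0.06, and 1.16 and 1.56 at the same times. Of the 9 arrays above 1, 4 were NIH3T3 at 25 mM. No value here separates spliced from unspliced Xbp1 transcript.

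Eif2ak3 (PERK) was not high as the other sensors were, at 0.43 and 0.72 on the 2 high arrays. In NIH3T3 at 25 mM it was -0.15 and -0.79 at 0 h, -0.11 and -0.13 at 24 h, 0.66 and 0.66 at 48 h, and 0.94 and 1.16 at 72 h. In K-ras at 25 mM the values were 0.00 and -0.31 at 0 h, -0.58 and -0.10 at 24 h, 0.32 and 0.00 at 48 h, and -0.72 and 0.38 at 72 h. At 1 mM the NIH3T3 pairs were 0.43 and -0.57, -0.44 and 0.96, and 0.80 and 0.53 at 24, 48 and 72 h, and the K-ras pairs -0.23 and -0.61, 0.06 and -0.44, and 0.76 and 0.72. The genes of translocation and export, which carry proteins into the ER and out of it, had medians of 0.59 and 0.69 on the 2 high arrays, below those of the chaperones but with 0.69 as the highest median of this role on any array. Sec24d, a coat protein of ER export vesicles, was 0.59 and 0.84, Sec61b, a subunit of the translocation channel, 0.65 and 0.49, and Ssr1 0.14 and 0.69.

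**Figure D4:**
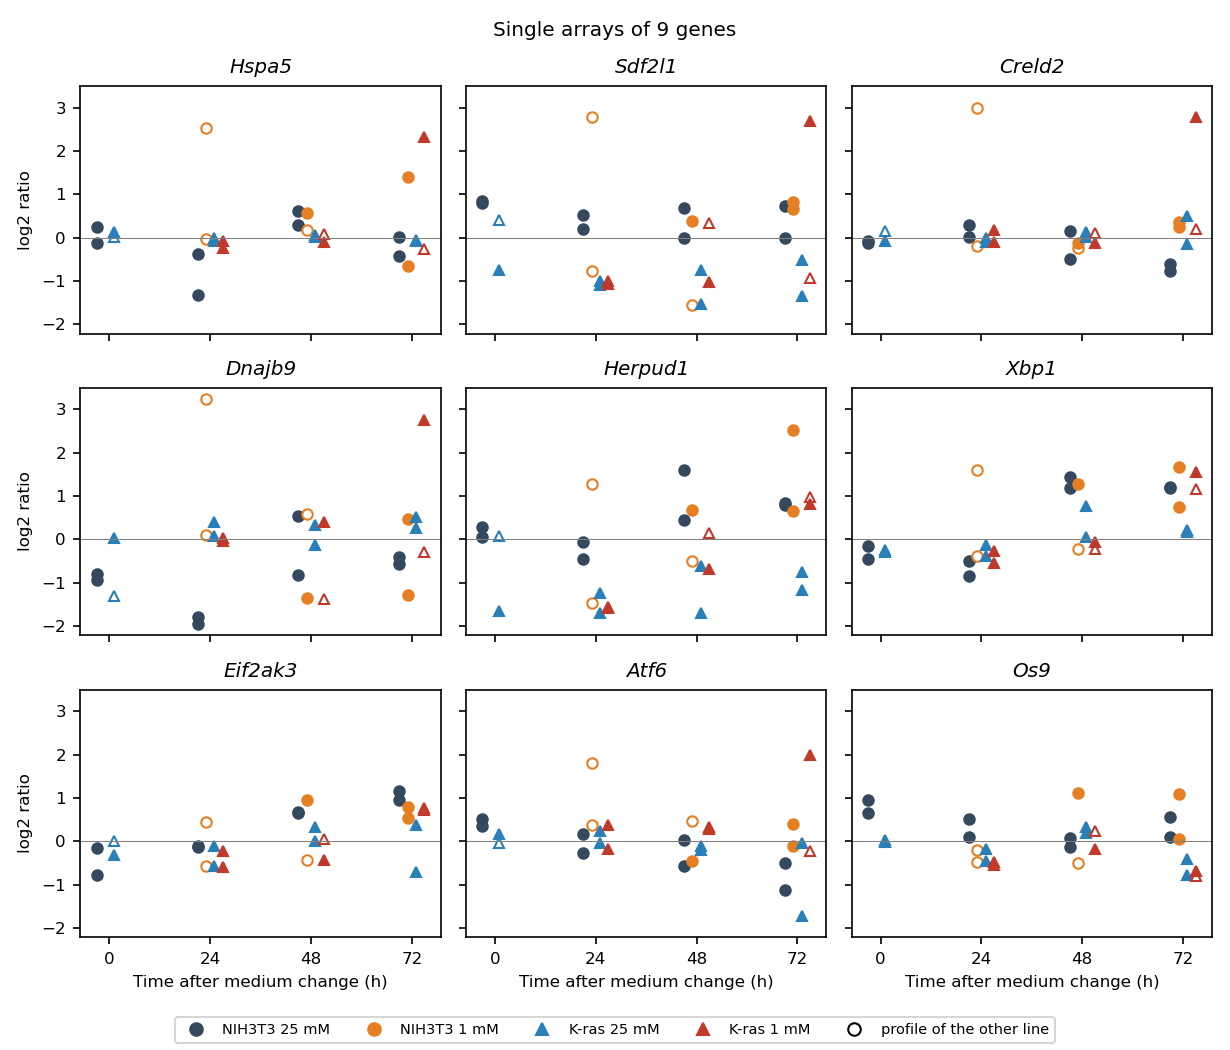
Log2 ratio of 9 genes on single arrays against hours after the change of medium; circles are NIH3T3, triangles K-ras, colours give the glucose concentration and open symbols mark arrays with the profile of the other line. In Creld2 the arrays at 2.99 and 2.77 stand alone, while Xbp1 has 9 arrays above 1 and Herpud1 has its top value, 2.52, on NIH3T3 1 mM 72 h replicate 2.

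The other genes of the pathway were read from 3 lists. On the 2 high arrays the 26 measured PERK and Atf4 output genes had medians of 0.94 and 0.97, with 11 and 12 genes above 1. On NIH3T3 1 mM 72 h replicate 2 the median was 1.14 with 14 genes above 1. The replicate partners of these 3 arrays had medians of -0.21, -0.03 and -0.02, with 0 genes above 1. Ddit3, Atf3 and Ppp1r15a were singled out after their values were seen. Ddit3 was 4.05, 4.01 and 4.17 on the 3 arrays and -0.91, 0.43 and -0.10 on the partners. In the same order, Atf3, a stress-responsive factor, was 3.001, 2.87 and 4.34, and Ppp1r15a (GADD34), which reverses the block in translation, 4.09, 3.63 and 3.46. The PERK and Atf4 output was therefore high on all 3 arrays, whereas the chaperones had medians of 2.54, 2.04 and 0.33 on them. The 40 other ER folding and degradation genes had medians of 0.40, 0.38 and 0.10, and the 45 genes of the translocon, glycosylation and COPII coat 0.37, 0.34 and -0.03. The 8 fibroblast markers also differed between these arrays, with medians of -1.09, -1.31 and 0.99 in a range over all arrays of -1.31 to 1.52. The medians of leukocyte, epithelial, endothelial, fat and muscle markers stayed between -0.25 and 0.34 on every array. The part of these markers in the result was not tested.

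The promoter letters did not separate the genes on the 2 high arrays. The 9 genes with an ERSE match had medians of 1.53 and 1.54, the 19 with an entry but no match 1.28 and 1.29, and the 6 without an entry 1.80 and 1.90. Hspa5, Hsp90b1 and Creld2 were among the highest and hold the letters shown above, and Derl3 holds them at -0.55 and -0.16. Dnajb9, at 3.24 and 2.76, had no ERSE match in its window.

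The design's question on glucose was then put to the labelled groups with limma, fitted on all 18194 genes and 28 arrays with Benjamini-Hochberg adjustment within each comparison. At 72 h in K-ras, 1 mM against 25 mM, 31 of the 34 genes had a positive difference and their median was 0.89, against 0.00 over all genes. With an adjusted p under 0.05, 0 of the 34 genes were called, beside 0.181% of all genes (limma). At an unadjusted p under 0.05, 12 were higher and 1 lower, against 7.45% and 7.9% of all genes. On the arrays, 13 genes had both 1 mM values above both 25 mM values, against 15.6% of all genes, and 2 had them below, against 16%. Canx had the smallest p, at 0.55 and 1.54 in 1 mM against -0.74 and -0.03 in 25 mM, a difference of 1.43 ± 0.36 (SE, n = 2 and 2; limma adjusted p = 0.093). The 3 largest differences were those of Ern1 (1.94 ± 0.64, limma adjusted p = 0.177), Dnajc3 (1.90 ± 0.65, limma adjusted p = 0.183) and Herpud1 (1.86 ± 0.76, limma adjusted p = 0.257). The difference of Hspa5 was 1.09, from arrays at -0.27 and 2.31 against -0.09 and -0.05, and its value was -0.20 without the high array and 2.38 without its replicate.

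The replicate of the high array in that group, K-ras 1 mM 72 h replicate 1, had the NIH3T3 profile. Without the 6 arrays of the other profile, 16 of the 34 genes were called higher in 1 mM and 0 lower (limma, adjusted p under 0.05), beside 1.52% and 2.22% of all genes, and the median difference was 1.76. This comparison sets 1 array against 2, and the lone array is assumed to vary like the other groups. The called genes included Sdf2l1 (3.63 ± 0.42, limma adjusted p = 0.000638), Atf6 (2.87 ± 0.54, adjusted p = 0.011 by limma), Creld2 (2.60 ± 0.31, limma adjusted p = 0.000666) and Hspa5 (2.38 ± 0.60, limma adjusted p = 0.046). By role, they were 6 chaperones and lectins, 3 DnaJ proteins, 3 isomerases, 3 degradation genes and Atf6. K-ras 25 mM 72 h replicate 1, the array with the widest spread, lay low in this set (median -0.41, with 8 genes below -1). With that array left out as well, the median difference was 1.57. This sets 1 array against 1, each assumed to vary like the other groups.

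**Figure D5:**
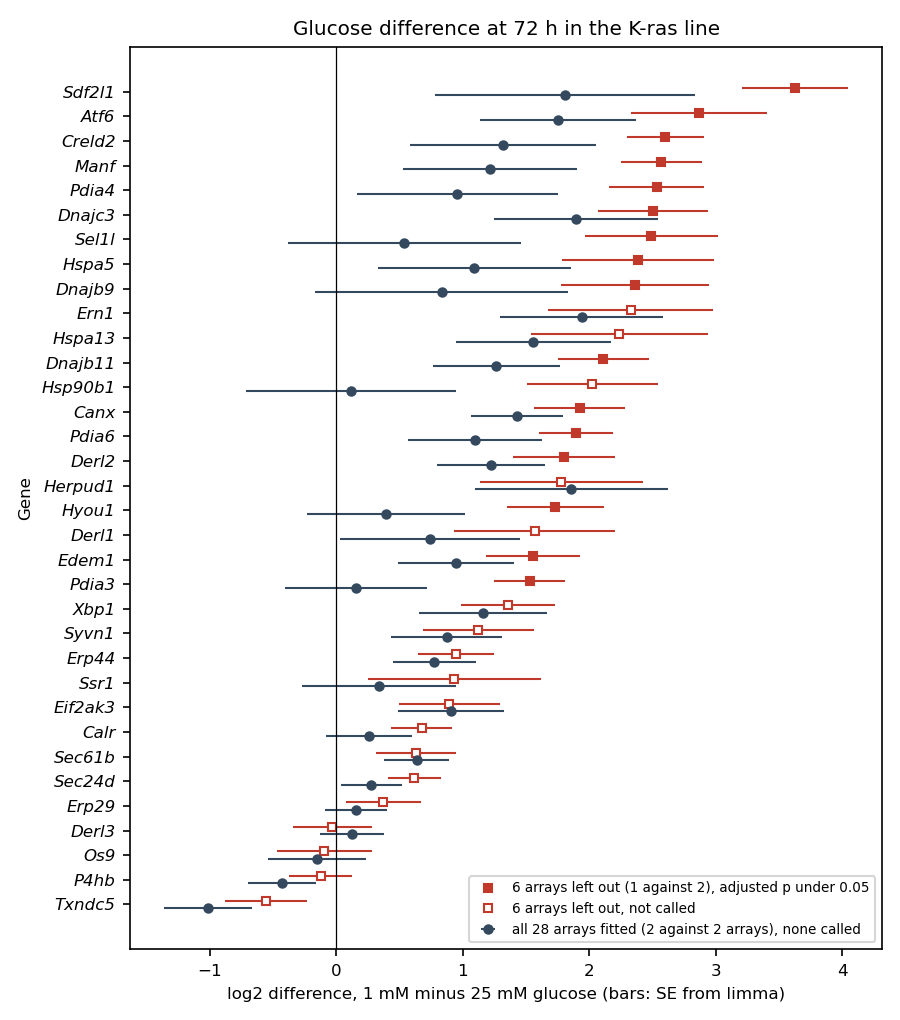
Log2 difference between 1 mM and 25 mM glucose at 72 h in K-ras for each of the 34 genes, with standard errors from limma. Dark circles are the fit on all 28 arrays (0 genes called). Red squares are the fit without the 6 arrays of the other profile, the high array alone against 2. Filled squares passed limma's threshold, from Sdf2l1 at 3.63 to Pdia3 at 1.53. With 1 array at 1 mM, no call is read from the fill.

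At 24 h in the arrays labelled NIH3T3, the other glucose comparison that held a high array, the median difference of the 34 genes was 0.81 against -0.09 over all genes. By limma 0 were called, beside 0.0055% of all genes, and 11 were higher and 0 lower at an unadjusted p under 0.05, against 7.88% and 8.24% of all genes. Both 1 mM arrays lay above both 25 mM arrays in 17 genes, against 18.7% of all genes, and below in 1, against 28%. Dnajb9 had the largest difference, with arrays at 3.24 and 0.09 in 1 mM and -1.95 and -1.80 in 25 mM (3.54 ± 1.00, limma adjusted p = 0.153). Pdia4 (2.10 ± 0.79, limma adjusted p = 0.228) and Hspa5 (2.10 ± 0.76, limma adjusted p = 0.215) followed. Both 1 mM arrays here had the K-ras profile, so this comparison also sets the profiles of the lines against each other, and glucose and line profile cannot be told apart in it.

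In the 4 other glucose comparisons limma called 0 of the 34 genes, also at an unadjusted p under 0.05. The share of all genes called was 0% for NIH3T3 at 48 h, 0.011% for NIH3T3 at 72 h, and 0% for K-ras at both 24 h and 48 h. In that order, 248, 1224, 117 and 759 of all genes had an unadjusted p under 0.05, and the medians of the 34 genes were -0.10, 0.31, -0.04 and -0.08. Both 1 mM arrays lay above both 25 mM arrays in 2, 13, 3 and 2 genes, against 10.6%, 24%, 14.8% and 20.4% of all genes, and below in 1, 2, 3 and 5, against 13.5%, 17.4%, 11.6% and 16.9%. At 72 h in NIH3T3 the largest differences were those of Creld2 (0.99 ± 0.74), Atf6 (0.97 ± 0.61) and Herpud1 (0.77 ± 0.76). Creld2 lay at 0.24 and 0.37 in 1 mM and at -0.77 and -0.61 in 25 mM. At 48 h in NIH3T3 they were those of Herpud1 (-0.94 ± 0.76), Sdf2l1 (-0.93 ± 1.03) and Xbp1 (-0.77 ± 0.50). In K-ras at 48 h they were those of Herpud1 (0.89 ± 0.76), Ssr1 (-0.83 ± 0.61) and Sdf2l1 (0.80 ± 1.03), and in both lines 1 of the 1 mM arrays carried the opposite line's profile. At 24 h in K-ras, where all 4 arrays matched their labels, the largest differences were those of Hsp90b1 (-0.43 ± 0.83), Dnajc3 (-0.32 ± 0.65) and Erp44 (-0.29 ± 0.33).

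Averaged over both lines and the 3 times, the glucose difference was positive in 29 of the 34 genes with a median of 0.30. By limma 0 were called, beside 0% of all genes, and 2 of the 34 and 917 of all genes had an unadjusted p under 0.05. Atf6 had the largest average difference (0.76 ± 0.25, limma adjusted p = 0.959), followed by Creld2 (0.59 ± 0.30) and Hspa5 (0.58 ± 0.31). Whether the 72 h difference depends on the line was tested as an interaction, K-ras minus NIH3T3. It called 0 of the 34 genes, beside 0% of all genes, with 4 of the 34 and 2221 of all genes at an unadjusted p under 0.05. The largest was that of Canx (1.66 ± 0.51, limma adjusted p = 0.241), from 1.43 in K-ras and -0.22 in NIH3T3, followed by Ern1 (1.49 ± 0.91) and Sdf2l1 (1.44 ± 1.45). Without the 6 arrays the interaction again had 1 array at 1 mM in K-ras, the high array. Its median over the 34 genes was 1.53, with Sdf2l1 at 3.26, Pdia4 at 2.34 and Manf at 2.04.

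Over time at 25 mM, a comparison in NIH3T3 in which all 4 arrays matched their labels, Eif2ak3 rose from a mean of -0.47 at 0 h to 1.05 at 72 h. The difference was 1.52 ± 0.42 (SE, n = 2 and 2; limma adjusted p = 0.0426), and both 72 h arrays lay above both 0 h arrays. It was the only gene of the 34 called there, beside 5.52% of all genes. The call was lost without any 1 of its 4 arrays (differences of 1.20 to 1.84), with quantile normalisation (1.18, limma adjusted p = 0.14) and with the replicate number as a block (1.52, limma adjusted p = 0.0534). Averaged over its 3 probe sets the difference was 0.33. Xbp1 (1.495 ± 0.504, limma adjusted p = 0.0914) and Syvn1 (1.28 ± 0.44, limma adjusted p = 0.0995) were next by p, and the fit without the 6 arrays called both with Eif2ak3, 3 genes beside 6.94% of all genes higher.

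The chaperones did not share that direction in NIH3T3 at 25 mM. Of the 9 chaperones and lectins, 0 had a positive difference between 0 and 72 h, and their median was -0.46, with 0 called, 0 at an unadjusted p under 0.05. The degradation genes had a median of 0.54 and the sensors with Xbp1 0.90. Over the 34 genes the median was -0.11, with 13 genes having both 72 h arrays above both 0 h arrays, against 27.1% of all genes, and 11 below, against 34.2%. The PERK and Atf4 output genes had a median of -0.58, with 2 of 26 called, beside 5.52% of all genes, both lower: the mitochondrial folate enzyme Mthfd2 (-2.25 ± 0.52) and the secreted glycoprotein Stc2 (-1.75 ± 0.48). Of the 40 other ER genes, the ER lectin Erlec1 was called higher (1.97 ± 0.51) and the extraction cofactor Nploc4 lower (-1.09 ± 0.24), and of the 45 translocon and coat genes 0 were called, with 8 at an unadjusted p under 0.05, against 20.3% of all genes. These counts are not read as results about the lists. The fibroblast markers had a median of 1.93 in this comparison, with 0 of 8 called and 3 at an unadjusted p under 0.05, and their part in the result was not tested.

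From 0 to 24 h in NIH3T3 at 25 mM, 27 of the 34 genes had a negative difference, with a median of -0.28 against 0.03 over all genes. Both 24 h arrays lay below both 0 h arrays in 18 genes, against 15.5% of all genes, and above in 3, against 18.9%. By limma 0 were called, beside 0.0055% of all genes, and 1 of the 34 and 828 of all genes had an unadjusted p under 0.05. Dnajb9 (-1.01 ± 1.00), Hspa5 (-0.91 ± 0.76) and Erp44 (-0.72 ± 0.33) had the largest differences. Hspa5 was 0.24 and -0.11 at 0 h and -1.32 and -0.37 at 24 h.

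In K-ras at 25 mM from 0 to 72 h, 0 of the 34 genes were called by limma, beside 0% of all genes, and 1 of the 34 and 2791 of all genes had an unadjusted p under 0.05. That gene was Hspa13, at 0.58 and 0.54 at 0 h and -2.75 and -0.77 at 72 h (-2.33 ± 0.61, limma adjusted p = 0.2). Replicate 1 at 0 h had the NIH3T3 profile, and replicate 1 at 72 h, at -2.75, was the array with the widest spread. Dnajc3 (-1.09 ± 0.65) and Dnajb9 (1.03 ± 1.00) had the next largest differences. The difference of this time course between the lines called 0, beside 0.0055% of all genes, with 2 of the 34 and 2004 of all genes at an unadjusted p under 0.05. Its largest values were those of Syvn1 (-1.70 ± 0.62), Eif2ak3 (-1.53 ± 0.59) and Hspa13 (-1.37 ± 0.87). Eif2ak3 had a limma adjusted p of 0.413, so the rise of Eif2ak3 in NIH3T3 was not shown to differ from K-ras.

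At 1 mM, 72 h against 0 h, in which time and glucose both change, the median of the 34 genes was 0.16 in NIH3T3 and 0.81 in K-ras. By limma 0 were called in either line, beside 0.148% and 0% of all genes, with 3 and 9 of the 34 and 2245 and 2105 of all genes at an unadjusted p under 0.05. Xbp1 had both 72 h arrays above both 0 h arrays under each line label, with differences of 1.51 ± 0.50 (limma adjusted p = 0.224) in NIH3T3 and 1.63 ± 0.50 (limma adjusted p = 0.253) in K-ras. Replicate 1 of K-ras had the NIH3T3 profile at both times. Only replicate 2, at -0.30 and 1.56, had the K-ras profile. The next largest in NIH3T3 were Herpud1 (1.42 ± 0.76) and Syvn1 (1.32 ± 0.44), and the 3 largest in K-ras were Dnajb9 (1.87 ± 1.00), Herpud1 (1.68 ± 0.76) and Derl1 (1.68 ± 0.71). These comparisons share their 0 h arrays with those at 25 mM. From 24 to 72 h at 1 mM in K-ras, the median was 0.83 and 18 of the 34 genes had both 72 h arrays above both 24 h arrays, against 18.7% of all genes, and 1 had them below, against 19.7%. Limma called 0, beside 0% of all genes, with 12 of the 34 and 1508 of all genes at an unadjusted p under 0.05. The largest differences were those of Herpud1 (2.48 ± 0.76, limma adjusted p = 0.493), Sdf2l1 (1.91 ± 1.03) and Xbp1 (1.76 ± 0.50, limma adjusted p = 0.485). Without the 6 arrays, the median difference was 1.76 from 24 to 72 h and 1.53 from 0 to 72 h, with the high array alone at 72 h.

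Between the lines at 25 mM, averaged over the 4 times, Herpud1 was lower in K-ras, with a mean of -1.09 against 0.44. The difference was -1.53 ± 0.38 (SE, n = 8 and 8; limma adjusted p = 0.016), and it was the only gene of the 34 called, beside 11.3% of all genes. It was -1.75 without the 6 arrays, -1.32 without K-ras 25 mM 0 h replicate 2 (limma adjusted p = 0.0568), and -0.02 ± 0.77 with the bioC split as a block. At 25 mM all 8 NIH3T3 arrays had low bioC and all 8 K-ras arrays did not, so within these groups line and bioC cannot be told apart. The block was set only by NIH3T3 at 1 mM, at 48 h and 72 h, where bioC differed between replicates. The 48 h pair also had opposite line profiles, so the value with the block is not read as an effect of bioC. Sdf2l1 (-1.30 ± 0.51, limma adjusted p = 0.121), P4hb (-0.38 ± 0.13, limma adjusted p = 0.0744) and Sec24d (0.35 ± 0.12, limma adjusted p = 0.0742) were not called. Without the 6 arrays 8 genes were called, 2 higher and 6 lower, beside 8.62% and 9.23% of all genes. Lower in K-ras were Herpud1, Sdf2l1 (-1.44), Dnajc3 (-0.72), Os9 (-0.52), Pdia6 (-0.44) and P4hb (-0.38), and higher were Dnajb9 (1.03) and Sec24d (0.40).

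For the related lists, the counts called between the lines at 25 mM stand beside the same 11.3% of all genes, and nothing particular to a list is read from them. Of the 40 other ER folding and degradation genes 1 was called higher and 5 lower in K-ras, among them the disulfide isomerase Pdia5 (-1.47 ± 0.30), the ER stress factor Creb3l2 (-1.23 ± 0.35) and the calcium-binding Nucb2 (-1.06 ± 0.33). Of the 45 translocon and coat genes 2 were called higher, Sec61a2 (0.91 ± 0.14) and Sec23a (0.49 ± 0.15). Of the 26 PERK and Atf4 output genes 1 was called higher, Cebpb (1.00 ± 0.30), and 4 lower, among them Nupr1 (-1.34 ± 0.35) and the amino acid transporter Slc7a5 (-1.15 ± 0.26). At 72 h alone, 0 of the 34 genes were called between the lines at 25 mM, beside 0.726% of all genes, with 5 of the 34 and 3929 of all genes at an unadjusted p under 0.05. At 1 mM and 72 h, 0 were called, beside 0.253% of all genes, with 5 of the 34 and 2296 of all genes at an unadjusted p under 0.05. The largest differences were those of Herpud1 (-1.78 ± 0.76), Hspa13 (-1.31 ± 0.61) and Sdf2l1 (-1.30 ± 1.03) at 25 mM. At 1 mM they were those of Dnajb9 (1.62 ± 1.00), Os9 (-1.33 ± 0.39, limma adjusted p = 0.134) and Canx (1.26 ± 0.36, limma adjusted p = 0.131). Without the 6 arrays, the median difference of the 34 genes at 1 mM and 72 h was 1.02, resting on the single array K-ras 1 mM 72 h replicate 2.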

How the data were processed

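Total RNA of 28 cultures was hybridised to Affymetrix arrays, 1 array each. Per the submitters' processing notes RMA was used; version and step: not given in the sources used here. Values arrived from the authors as 1 deposited table of log2 values for 45101 probe sets. Tested on the file, the linear ratio had a median of 1 over the 28 arrays in 45101 of 45101 probe sets (tolerance 0.001), so each deposited log2 value is relative to the median of that probe set and carries no level; signal over background is unknown. Of the probe sets, 34958 had 1 symbol in the platform annotation, 34754 matched RefSeq, and those with several symbols (932) or none were left out.

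limma 3.58.1 in R 4.3.3 was fitted with 1 coefficient per labelled group on all 28 arrays, in 18 comparisons, and checked on simulated data. An adjusted p under 0.05 was called, with no fold threshold. Errors are limma's standard errors. The members, their roles, the related lists and the comparisons were chosen with earlier results of these data known. All 34 members could be named, with values for Hspa5, Hsp90b1, Dnajb9, Herpud1, Xbp1, Sdf2l1, Creld2, Manf, Atf6, Ern1, Eif2ak3, Edem1 and called genes, and the 3 largest differences where none was called; other genes only where called, except those stated as singled out. Alternatives were another scaling, probe-set averages, a filter on SD, blocks (replicate number, bioC), array weights, fewer arrays and leaving out each array. Replicate numbers are only names: over 14 comparisons the replicates' deviations correlated between -0.58 and 0.51, with 3 over 0.1. Figures used Python 3.11.15 with matplotlib 3.10.9.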

Additional observations from a re-analysis of the deposited data

Results flagged for a closer look

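The following differences were noted because every array of 1 line's comparison moved one way and every array of the other line's moved the opposite way. For glucose at 24 h, Hspa5 (-0.12 in K-ras, 2.10 in NIH3T3) and Dnajb9 (-0.23 and 3.54) differed between the lines by -2.22 and -3.77 log2 units. At 48 h, Ssr1 (-0.83 and 0.16) and Sec24d (-0.45 and 0.20) differed by -0.99 and -0.65. These differences between lines were not tested, and the groups at 1 mM hold arrays with the profile of the other line. For glucose at 72 h, Canx and Eif2ak3 differed by 1.66 and 1.30, with interaction adjusted p-values of 0.241 and 0.387 by limma. For 72 h against 0 h, Ern1 at 25 mM differed by -1.06 (interaction adjusted p = 0.654 by limma), and Canx at 1 mM by 1.29; the latter difference was not tested. No explanation was tested for these values.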

How the results depend on the processing

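All alternatives were listed with the design except the fits without 7 arrays (the 6 of the other profile and K-ras 25 mM 72 h replicate 1) and the glucose average over 5 pairs, chosen after seeing the data. Of 272 counts of called genes under alternatives, 227 stayed within 1.5 times the reported count, and of 1188 single-gene values 1112 kept direction and call. The cause of the changes was not tested. Fits that leave arrays out change both which arrays are used and how many. The called counts below stand without the share of all genes called in the same fit. Nothing particular to the genes described here is therefore read from these counts. Called counts without the 6 and without the 7 arrays were 16 and 11 for glucose in K-ras at 72 h (1 array against 2, and 1 against 1), 3 and 1 for its difference between lines, 3 and 5 for 72 against 0 h in NIH3T3 at 25 mM, 1 and 3 at 1 mM, 7 and 10 in K-ras at 1 mM, 14 and 18 for 72 against 24 h, 8 and 8 for the line average at 25 mM, 4 and 2 for lines at 25 mM and 72 h, and 11 and 13 at 1 mM. The glucose average called 1 over 5 pairs and 2 without the 7 arrays. For 72 against 0 h in NIH3T3 at 25 mM, where 1 gene was called, counts were 0 with quantile normalisation, probe-set means or the replicate block, 2 with the bioC block, 4 with array weights and 13 with only the arrays compared. The main fit of that comparison called 5.52% of all genes, and the share under each alternative is not given here. At 1 mM the bioC block called 1. For the line average, probe-set means called 2, the bioC block 0 and the compared arrays alone 8, and these alone called 1 for lines at 25 mM and 72 h. The replicate block changed no other called count. The bioC block was set only by NIH3T3 at 1 mM and 48 h, a pair with opposite line profiles, and at 72 h. Values that changed with it are not read as effects of bioC. Single values that reversed were Hspa5 for glucose in NIH3T3 at 48 h (0.53 with the bioC block, 0.11 without the 6 or 7 arrays), Sdf2l1 there (0.032 without them), Hspa5 for glucose in K-ras at 24 h (0.004 with probe-set means) and by line at 72 h (-0.09 with the bioC block), and Xbp1 between lines at 25 mM on average (0.85) and at 72 h (0.21) with the bioC block, and at 1 mM (-0.13) with probe-set means. Leaving out each array in turn moved called counts between 0 and 6 for glucose in K-ras at 72 h (6 without K-ras 25 mM 72 h replicate 2, 2 without K-ras 1 mM 72 h replicate 1), 0 and 1 for its difference between lines, 0 and 3 for lines at 25 mM and 72 h, 0 and 1 at 1 mM, 0 and 2 for the line average, 0 and 1 for 72 against 0 h in K-ras at 25 mM, 0 and 2 for that difference between lines, and to 0 throughout in NIH3T3. It moved Hspa5 between -0.20 and 2.38 for glucose in K-ras at 72 h, -0.14 and 0.038 at 48 h, -0.28 and 0.11 in NIH3T3 at 48 h, -0.47 and 1.60 at 72 h, and -0.77 and 1.82 for the difference between lines. For lines at 72 h Hspa5 ran from -0.64 to 1.94 at 1 mM and from -0.094 to 0.34 at 25 mM, and over time from -0.35 to 2.24 (K-ras 1 mM, 72 against 0 h), -0.11 to 2.47 (72 against 24 h), -0.73 to 1.34 (NIH3T3 1 mM) and -0.10 to 0.34 (between lines). For glucose, Dnajc3 ran from -0.74 to 0.11 and Hsp90b1 from -1.0 to 0.15 in K-ras at 24 h, Herpud1 from -0.16 to 1.70 and Xbp1 from -0.45 to 0.48 in NIH3T3 at 72 h, Sdf2l1 from -1.90 to 0.032 in NIH3T3 at 48 h and from -0.37 to 3.26 for the difference between lines at 72 h, and Xbp1 from -0.002 to 0.33 on average. Between lines at 1 mM Xbp1 ran from -0.33 to 0.60. Glucose in NIH3T3 at 24 h could not be fitted without the 6 arrays, which include both of its 1 mM arrays. Low ratios may lie near background, which these values do not show.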
